A study of Homo sapiens with 28 samples.

Results

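The membrane-type matrix metalloproteinases (MT-MMPs) *MMP14*, *MMP15*, *MMP16*, *MMP17*, *MMP24* and *MMP25* and their tissue inhibitors *TIMP1*, *TIMP2*, *TIMP3* and *TIMP4* were followed through every treatment group. These 10 genes were taken by name from the 26443 genes that carried an expression value. The cells were LNCaP, an androgen-responsive prostate cancer line from a lymph node metastasis, and all 28 libraries came from this 1 line, which the labels give as genotype WT. The study asked whether transcription that changes on loss of HOXB13 depends on the acetyltransferases p300 and CBP. In the knockdown series, 8 groups of 2 libraries carried shHOXB13 (a hairpin against *HOXB13*) or shCtrl (a control hairpin), each together with shp300, with shCBP, with both (shp300/CBP) or with no further hairpin. The 4 groups of 3 libraries in the CCS1477 series carried shHOXB13 or shCtrl and received either 250 nM CCS1477, an inhibitor of the p300 and CBP bromodomains, or its DMSO vehicle for 48 hours. Each gene was targeted by 1 hairpin, so an effect of a hairpin cannot be told apart from an effect of that single sequence. The study calls the libraries biological replicates, and the labels do not give separate cultures, so the spread between them may be partly technical.

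MT-MMPs are proteases held at the cell surface, where they cut collagens, fibronectin and other surface proteins. MMP14, MMP15, MMP16 and MMP24 span the membrane, and MMP17 and MMP25 are held by a glycolipid anchor. TIMPs block the active site of MMPs, and TIMP2 has a further role, since together with MMP14 it can present the secreted proenzyme of MMP2 for activation. HOXB13 is a homeodomain transcription factor of the luminal prostate epithelium, and p300 (*EP300*) and CBP (*CREBBP*) acetylate histones at enhancers and promoters.

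The promoters of *MMP15* and *MMP14* are shown because these were the MT-MMPs with the highest and the lowest mean level. Each sequence holds the 250 bases before the RefSeq gene start in GRCh38.p14 on the plus strand, at chr16:58025504-58025753 for *MMP15* and chr14:22836335-22836584 for *MMP14*, and capitals mark GC boxes (GGGCGG, searched on both strands).
MMP15: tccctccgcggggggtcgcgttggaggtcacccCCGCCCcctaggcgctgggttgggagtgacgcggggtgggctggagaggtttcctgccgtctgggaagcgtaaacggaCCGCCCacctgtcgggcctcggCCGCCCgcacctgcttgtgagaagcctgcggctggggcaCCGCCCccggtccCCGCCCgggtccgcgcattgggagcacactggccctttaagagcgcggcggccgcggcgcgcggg
MMP14: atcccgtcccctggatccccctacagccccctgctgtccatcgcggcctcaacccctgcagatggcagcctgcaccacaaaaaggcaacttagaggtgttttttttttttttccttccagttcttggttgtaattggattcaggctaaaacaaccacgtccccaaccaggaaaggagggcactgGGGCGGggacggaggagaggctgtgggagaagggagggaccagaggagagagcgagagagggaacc
The *MMP15* promoter held 5 GC boxes and was 74.8% G and C, above the upper quartile of 67.6% for the 27305 promoters of the same length, whereas the *MMP14* promoter held 1 GC box and was 56.8% G and C, close to the median of 58.0%. A GC box was present in 42.3% of all promoters. Of the 10 genes, 6 had a promoter in the RefSeq table, and none of the 6 held TATAAA (11.1% of all promoters), CCAATAAA, a site of the kind that HOX13 proteins bind (0.927%), or the E-box CACGTG (6.49%), on either strand.

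By the GENCODE 44 annotation of GRCh38, *MMP14* lies at chr14:22836560-22849041, *MMP15* at chr16:58025754-58046901, *MMP17* at chr12:131828393-131851783, *MMP24* at chr20:35226690-35276998 and *MMP25* at chr16:3046062-3060726, all on the plus strand, and *MMP16* lies on chromosome 8. *TIMP2* lies at chr17:78852977-78925387 on the minus strand. *TIMP1* (chrX:47582408-47586789), *TIMP3* (chr22:32801705-32863041) and *TIMP4* (chr3:12153068-12158912) each lie inside a synapsin gene on the other strand. Strand was ignored when reads were counted. *MMP24* shares 806 exon bases, 18.4% of its exon length, with the antisense gene listed as *MMP24-AS1*, and *MMP25* shares 1454 exon bases (30.6%) with *MMP25-AS1*, so reads from these stretches cannot be told apart and the values of *MMP24* and *MMP25* are uncertain to that extent.

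Mapped reads per library ranged between 7458934 and 16338528, and reads of named genes made up 78.4% to 84.0% of them in the CCS1477 series and 52.6% to 74.3% in the knockdown series. Within the knockdown series this share was 52.6% to 68.8% in shHOXB13 libraries and 64.7% to 74.3% in shCtrl libraries. It was 52.6% to 61.5% in shHOXB13+shp300/CBP against 68.0% to 70.6% in shCtrl+shp300/CBP. In the CCS1477 series it was 78.4% to 82.8% in shHOXB13 and 80.0% to 84.0% in shCtrl libraries. The part of these shares in the FPKM values was not tested. The replicates of shHOXB13+shp300/CBP were the least alike (r = 0.937 on the log2 scale), and in the CCS1477 series shCtrl DMSO replicate 1 and shCtrl CCS1477 replicate 1 stood apart from the other libraries of their groups. *HOXB13* itself was at 5.25 to 12.1 FPKM (reads of a gene divided by its length and by the mapped reads of the library) in the 8 shHOXB13 libraries of the knockdown series against 43.2 to 87.6 FPKM in the 8 shCtrl libraries, and at 28.4 to 32.2 FPKM against 110 to 147 FPKM in the CCS1477 series. All 9 markers of LNCaP and luminal prostate cells were detected in every group, and the summed level of 7 fibroblast markers was 4.64 to 18.9 FPKM in the shHOXB13 libraries of the knockdown series, against 1.60 to 3.55 FPKM in its shCtrl libraries, with *COL1A2* at 0 in all 16. The summed level of 6 immune markers was 9.55 to 41.0 FPKM against 2.53 to 6.06 FPKM in the same libraries, with most of it from *CD68*, and *PTPRC*, which marks all leukocytes, was at or near 0. In the CCS1477 series the fibroblast sum was 2.77 to 5.61 FPKM in shHOXB13 libraries and 3.43 to 5.72 FPKM in shCtrl libraries, and the immune sum 5.52 to 11.6 FPKM and 4.33 to 8.15 FPKM. Over all 28 libraries *COL1A1* reached 17.8 FPKM, and the other fibroblast markers reached at most 2.03 FPKM (*LUM*). The part of other cells in the results below was not tested.

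*MMP15* and *TIMP2* were the most abundant members, with means over all 28 libraries of 31.8 and 44.5 FPKM. *MMP16* averaged 7.71 FPKM and *MMP24* 1.26 FPKM, and the other 6 averaged below 1 FPKM. *MMP14*, the best known activator of MMP2, reached at most 9 reads in any library and was at 0 in 13 of 28, and *TIMP4*, an inhibitor best known from heart tissue, reached at most 2 reads and was at 0 in 24. Differences were tested with limma on log2(FPKM + 0.1), a scale that understates changes of low genes, and a gene passed at an adjusted p under 0.05. Of the 10 members 9 reached the filter for low values in each series and *TIMP4* did not. Since these are bulk samples, fewer cells expressing a gene and less RNA per cell cannot be told apart.

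**Figure D1:**
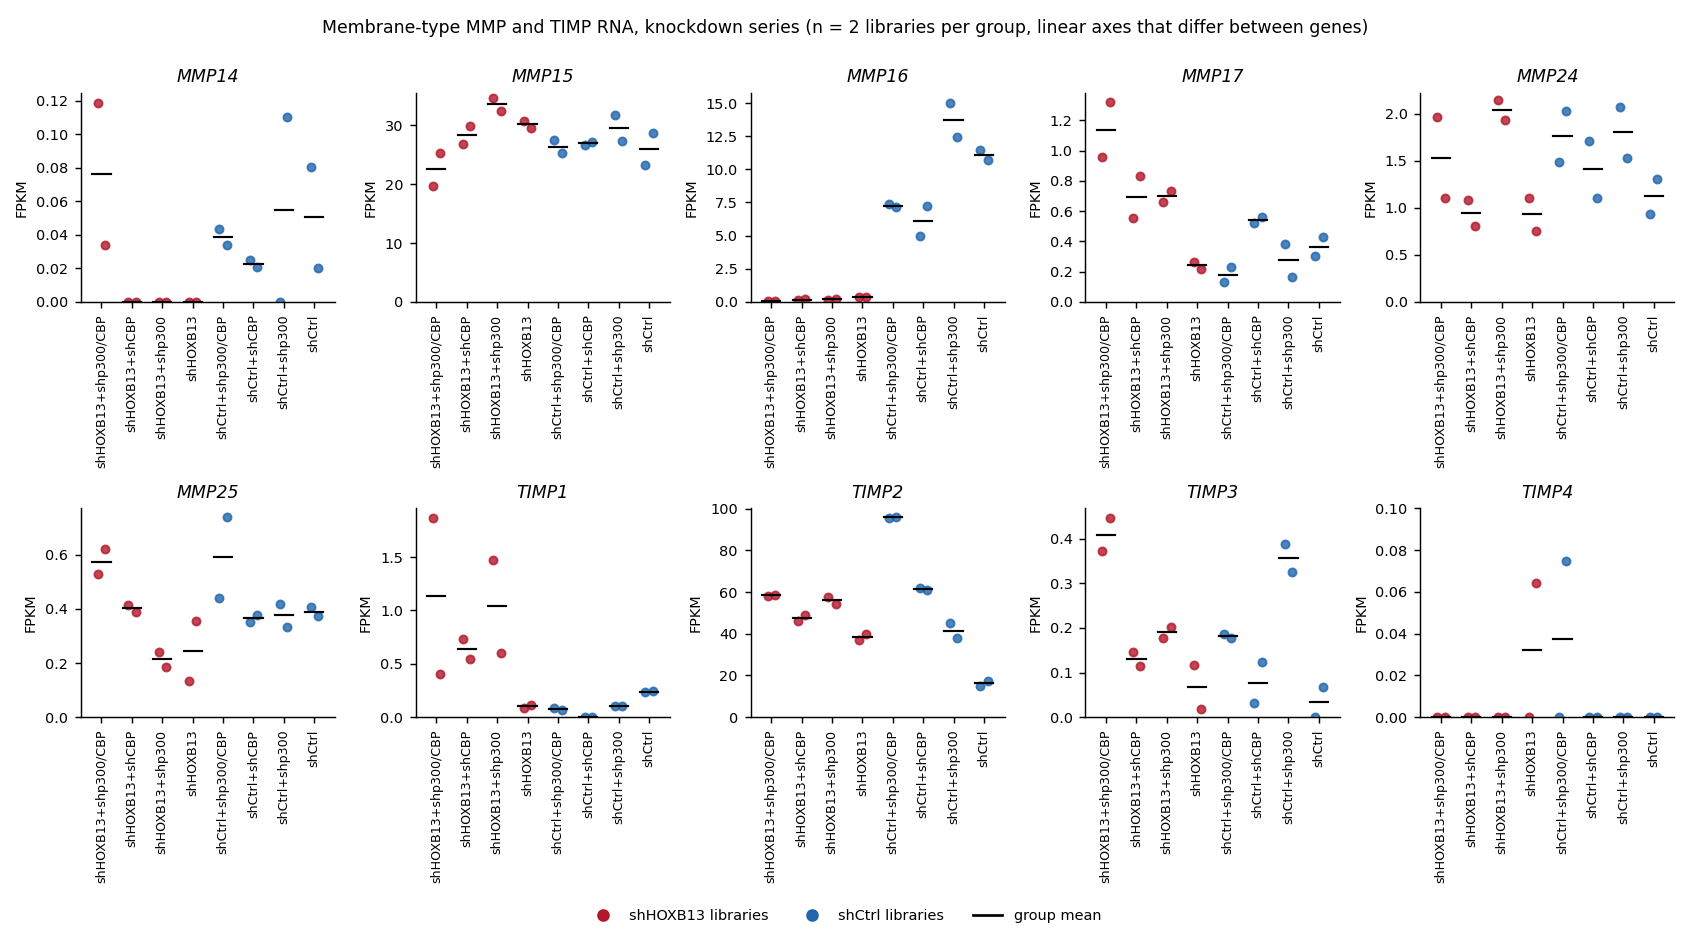
Level of the members in the knockdown series in FPKM, with 1 point per library and a bar at the mean of each group of 2. The 8 shHOXB13 libraries lie at 0.0808 to 0.378 FPKM for *MMP16*, below all 8 shCtrl libraries, and *TIMP2* is lowest in shCtrl and highest in shCtrl+shp300/CBP.

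The HOXB13 hairpin lowered *MMP16*, which encodes a transmembrane collagen-cutting protease, in every arm of the study. In the knockdown series *MMP16* was at 0.378 and 0.365 FPKM in shHOXB13 and 11.5 and 10.7 FPKM in shCtrl. With shp300 it was at 0.174 and 0.227 FPKM in shHOXB13+shp300 and 15.0 and 12.4 FPKM in shCtrl+shp300. With shCBP it was at 0.106 and 0.218 FPKM in shHOXB13+shCBP and 4.94 and 7.27 FPKM in shCtrl+shCBP. No shHOXB13 library reached the level of any shCtrl library. With both hairpins it was at 0.0808 and 0.0965 FPKM in shHOXB13+shp300/CBP, from 6 and 5 reads, and 7.36 and 7.16 FPKM in shCtrl+shp300/CBP. In the CCS1477 series *MMP16* was at 0.593, 0.621 and 0.722 FPKM in shHOXB13 DMSO and 19.7, 23.3 and 23.5 FPKM in shCtrl DMSO. With the drug it was at 0.908, 1.18 and 1.18 FPKM in shHOXB13 CCS1477 and 19.9, 21.3 and 25.1 FPKM in shCtrl CCS1477. The shHOXB13 and shCtrl libraries did not overlap in *MMP16* in either series, which was also so for 12.6% of the 15751 genes that reached the filter in both. The log2 fold change was -4.57 ± 0.25 for shHOXB13 over shCtrl (SE, limma, adjusted p = 1.9e-07), and over the 6 such comparisons it lay between -5.52 and -4.22, all passing and none lost when any 1 library was left out.

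*TIMP2*, the most abundant inhibitor, was higher in shHOXB13 when no other hairpin was present. It was at 36.7 and 39.8 FPKM in shHOXB13 and 15.0 and 17.5 FPKM in shCtrl, 2.36-fold higher with no overlap (log2 fold change 1.24 ± 0.11, SE, limma, adjusted p = 1.1e-05). In the CCS1477 series it was at 23.3, 26.8 and 28.1 FPKM in shHOXB13 DMSO and 19.96, 20.02 and 19.23 FPKM in shCtrl DMSO, a smaller difference that also passed (0.40 ± 0.09, limma, adjusted p = 0.0029). Under the drug it was at 59.1, 64.0 and 66.1 FPKM in shHOXB13 CCS1477 and 28.9, 26.9 and 33.5 FPKM in shCtrl CCS1477 (1.08 ± 0.09, limma, adjusted p = 2.7e-06). In each of these pairs every shHOXB13 library was above every shCtrl library. The order turned where CBP was also knocked down. *TIMP2* was at 46.1 and 49.1 FPKM in shHOXB13+shCBP and 62.1 and 61.0 FPKM in shCtrl+shCBP (-0.37 ± 0.11, limma, adjusted p = 0.023), and at 58.0 and 58.7 FPKM in shHOXB13+shp300/CBP and 95.6 and 96.0 FPKM in shCtrl+shp300/CBP (-0.71 ± 0.11, limma, adjusted p = 0.00038). With shp300 alone it was at 57.5 and 54.5 FPKM in shHOXB13+shp300 and 44.9 and 37.7 FPKM in shCtrl+shp300 (0.44 ± 0.11, limma, adjusted p = 0.0085). The shCBP difference was lost without shCtrl+shCBP replicate 1 or 2 (adjusted p = 0.087 and 0.081) or shHOXB13+shCBP replicate 1 (0.11), and the shp300 difference without shCtrl+shp300 replicate 2 (0.094). Scaling the libraries by median-of-ratios size factors left 0.01 (adjusted p = 0.99) for the shCBP difference and -0.23 (adjusted p = 0.16) for the shp300/CBP difference. With only the groups compared in the fit, neither the shCBP nor the shp300 difference passed (adjusted p = 0.0996 and 0.052).

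*MMP15*, which encodes a transmembrane protease and carried most of the MT-MMP level, passed in 1 of the 6 comparisons of shHOXB13 with shCtrl, that under CCS1477. It was at 30.8 and 29.6 FPKM in shHOXB13 and 23.3 and 28.7 FPKM in shCtrl (log2 fold change 0.22, 95% interval -0.06 to 0.50, limma, adjusted p = 0.25). It was at 35.7, 38.9 and 36.7 FPKM in shHOXB13 DMSO and 38.7, 34.8 and 34.2 FPKM in shCtrl DMSO, which overlap (0.05, limma, adjusted p = 0.61). Under CCS1477 *MMP15* was at 41.2, 47.4 and 42.5 FPKM in shHOXB13 and 33.1, 29.4 and 30.8 FPKM in shCtrl, with no overlap (0.49 ± 0.08, limma, adjusted p = 0.00035). The median gene was itself lower in shHOXB13 libraries, with a log2 fold change of -0.35 to -0.20 over the 6 comparisons, and relative to it *MMP15* stood at 0.55 in shHOXB13 over shCtrl and at 0.37 in the DMSO comparison. With median-of-ratios scaling, which sets the median gene to 0, *MMP15* passed as higher in shHOXB13 over shCtrl (0.63, limma, adjusted p = 0.0098), with shp300 (0.56, adjusted p = 0.015), with shCBP (0.45, adjusted p = 0.047) and under DMSO (0.39, adjusted p = 0.0020). It also passed in the mean of the 4 knockdown comparisons, at 0.47 (adjusted p = 0.00027) against 0.06 without that scaling.

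*MMP24*, a transmembrane MT-MMP known mainly from neurons, passed as lower in shHOXB13 under DMSO. It was at 0.867, 0.908 and 0.538 FPKM in shHOXB13 DMSO and 1.37, 1.48 and 1.42 FPKM in shCtrl DMSO, with no overlap (log2 fold change -0.83 ± 0.20, SE, limma, adjusted p = 0.0031). Under CCS1477 *MMP24* was at 0.944, 1.18 and 1.21 FPKM in shHOXB13 and 0.816, 0.798 and 0.717 FPKM in shCtrl, where every shHOXB13 library was the higher one (0.46, limma, adjusted p = 0.077), a difference that passed with median-of-ratios scaling (0.65, adjusted p = 0.016). It was at 1.11 and 0.752 FPKM in shHOXB13 and 0.936 and 1.31 FPKM in shCtrl, which overlap. The antisense gene *MMP24-AS1* ran the other way under DMSO, with means of 68.3 FPKM in shHOXB13 DMSO and 42.6 FPKM in shCtrl DMSO (0.68, limma, adjusted p = 1.8e-05).

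The glycolipid-anchored proteases were low throughout, and *MMP17* passed as higher in shHOXB13 in the pairs of groups that carried shp300, alone or with shCBP. It was at 0.956 and 1.32 FPKM in shHOXB13+shp300/CBP, from 27 and 26 reads, and 0.130 and 0.229 FPKM in shCtrl+shp300/CBP, from 4 and 9 reads (log2 fold change 2.15 ± 0.35, SE, limma, adjusted p = 0.00041). It was at 0.661 and 0.734 FPKM in shHOXB13+shp300 and 0.384 and 0.165 FPKM in shCtrl+shp300 (1.15 ± 0.35, limma, adjusted p = 0.019). The groups did not overlap in either pair. The second difference was lost without shHOXB13+shp300 replicate 1 or 2 (adjusted p = 0.052 and 0.086) or shCtrl+shp300 replicate 2, where the log2 fold change was 0.72 (0.17). Without those hairpins *MMP17* was at 0.265 and 0.218 FPKM in shHOXB13 and 0.301 and 0.427 FPKM in shCtrl (limma, adjusted p = 0.36), and in the CCS1477 series it had 1 to 8 reads a library. *MMP25*, a protease of neutrophils, was at 0.135 to 0.758 FPKM and passed in none of the 6 comparisons of shHOXB13 with shCtrl. Without shCtrl DMSO replicate 1, one of the libraries that stood apart, it passed as lower in shHOXB13 DMSO (-0.92, limma, adjusted p = 0.015). *MMP14* had 0 reads in the 3 shHOXB13 DMSO libraries and 3, 4 and 5 reads in the shCtrl DMSO libraries, so that it was at least 5.08-fold lower against a floor of 3 reads over the group. In the CCS1477 series *MMP14* reached the filter in 5 libraries, all of them shCtrl, so it entered the test only through the arm where it was high, and its call under DMSO (limma, adjusted p = 0.022) is given as a description. That call was lost without any 1 of the 3 shHOXB13 DMSO libraries (adjusted p = 0.051 to 0.052) or without shCtrl DMSO replicate 3 (0.065). Under CCS1477 *MMP14* had 0, 1 and 0 reads in shHOXB13 and 0, 6 and 9 reads in shCtrl (limma, adjusted p = 0.088). It passed as lower without shCtrl CCS1477 replicate 1 (0.0043), which is the shCtrl CCS1477 library with 0 reads. These values are likewise given as a description.

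*TIMP1*, a secreted inhibitor that acts weakly on the transmembrane MT-MMPs, rested on 0 to 20 reads a library. It was at 1.86 and 0.401 FPKM in shHOXB13+shp300/CBP (20 and 3 reads) and 0.0857 and 0.0668 FPKM in shCtrl+shp300/CBP (1 read each), a ratio of pooled levels of 16.8 with a 95% counting interval of 4.15 to 147 (limma, adjusted p = 0.0027). Of the 23 reads 20 came from shHOXB13+shp300/CBP replicate 1, and without it the log2 fold change was 1.51 in place of 2.49 (adjusted p = 0.020). With shp300 it was at 1.47 and 0.603 FPKM in shHOXB13+shp300 (11 and 5 reads) and 0.101 and 0.108 FPKM in shCtrl+shp300 (1 read each), a ratio of 9.71 (2.28 to 87.1, limma, adjusted p = 0.0042). Without shHOXB13+shp300 replicate 1 this log2 fold change was 1.78 in place of 2.36 (adjusted p = 0.046). With shCBP it had 5 and 4 reads in shHOXB13+shCBP and none in shCtrl+shCBP, at least 4.78-fold higher against a floor of 3 reads over the group (limma, adjusted p = 0.0015). All 6 shHOXB13 libraries that carried a further hairpin were above all 6 matching shCtrl libraries. With no further hairpin *TIMP1* had 1 read in each shHOXB13 library and 3 in each shCtrl library. Under CCS1477 it had 4, 0 and 3 reads in shHOXB13 and none in shCtrl (limma, adjusted p = 0.053). It passed without shHOXB13 CCS1477 replicate 2 (0.0023), which is the shHOXB13 CCS1477 library with 0 reads. In that series *TIMP1* reached the filter in shHOXB13 libraries only. It thus entered the test only through the arm where it was high, and these values are given as a description. *TIMP3*, an inhibitor bound to the matrix, was at 0.101, 0.130 and 0.282 FPKM in shHOXB13 CCS1477 and 0, 0.0166 and 0.0581 FPKM in shCtrl CCS1477, from at most 18 reads. These 3 shHOXB13 CCS1477 libraries were the only ones of the series in which *TIMP3* reached the filter for low values, so it entered the test only through the group where it was high, and its call there (log2 fold change 1.09, limma, adjusted p = 0.023) is given as a description. The call was lost without shCtrl CCS1477 replicate 1 or 2 (adjusted p = 0.071 and 0.059) and with only the groups compared in the fit (0.060). *TIMP3* was not called in the other comparisons of shHOXB13 with shCtrl. Fibroblasts also express *TIMP1* and *TIMP3*, and the summed fibroblast markers were at 18.9 and 6.42 FPKM in shHOXB13+shp300/CBP against 3.37 and 3.23 FPKM in shCtrl+shp300/CBP. The higher of these sums was in the library that held 20 of the 23 *TIMP1* reads. Among the fibroblast markers *COL1A1* reached 17.8 FPKM in any library, *LUM* 2.03 FPKM, *COL1A2* 0.0263 FPKM and *DCN* 0.0244 FPKM. The summed fibroblast markers were at 5.07 to 5.61 FPKM in shHOXB13 CCS1477 against 4.13 to 5.72 FPKM in shCtrl CCS1477, which overlap. Their part in these values was not tested.

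By count, 2 of the 9 members tested passed for shHOXB13 over shCtrl, where 39.2% of all 17678 genes tested passed. With shp300 in both groups 4 passed (41.7% of all genes), with shCBP 3 (37.5%) and with shp300/CBP 4 (43.0%). In the mean of these 4 knockdown comparisons 4 passed, where 64.4% of all genes did: *MMP16*, *MMP17*, *TIMP1* and *TIMP2*, the last at 0.15 ± 0.06 (limma, adjusted p = 0.037), a value that held only without shHOXB13+shp300/CBP replicate 1, shHOXB13+shCBP replicate 1, shHOXB13+shp300 replicate 2, shHOXB13 replicate 1, shCtrl+shp300 replicate 1 or shCtrl replicate 2 and was lost without any other library (adjusted p = 0.051 to 0.0995). In the CCS1477 series 4 of 9 passed under DMSO, where 57.6% of 15907 genes did, and 4 under CCS1477, where 42.9% did. The first count includes *MMP14* and the second *TIMP3*, which reached the filter only through the arm where they were high. These shares of the members were near or below those of all genes.

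**Figure D2:**
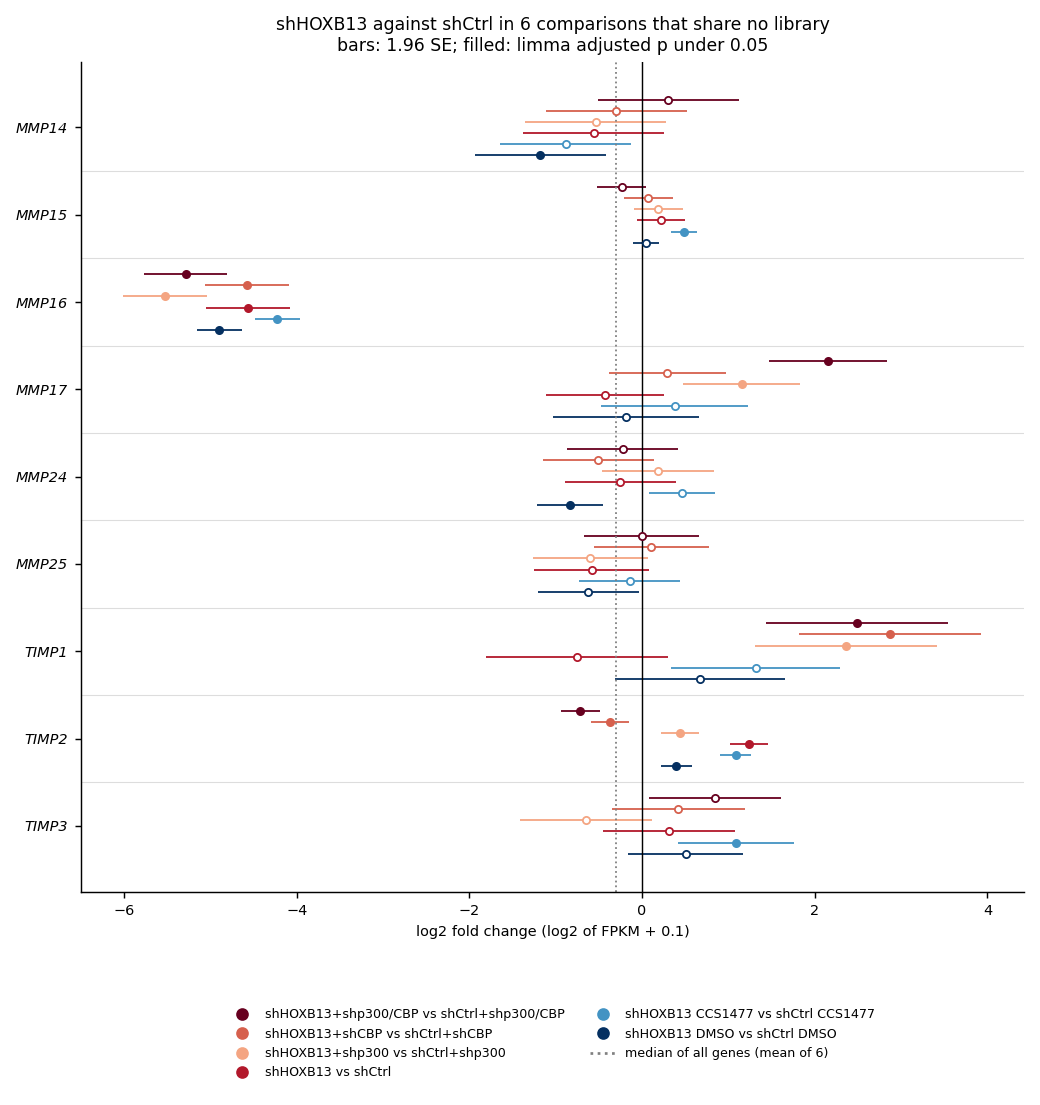
Log2 fold change of each member, shHOXB13 over shCtrl, in the 6 matched comparisons, with bars that span about 95% around each value and filled points at an adjusted p under 0.05; the dotted line is the mean of the 6 medians of all genes, -0.30. *MMP16* lies between -5.52 and -4.22 in all 6, and *TIMP2* lies above 0 in 4 comparisons and below 0 in the 2 with shCBP, the first of which is at 0.01 with median-of-ratios scaling.

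In shCtrl cells every hairpin against p300 or CBP raised *TIMP2*. It was at 44.9 and 37.7 FPKM in shCtrl+shp300 and 15.0 and 17.5 FPKM in shCtrl, 2.55-fold higher (log2 fold change 1.34 ± 0.11, SE, limma, adjusted p = 0.00018). With shCBP it was 3.79-fold higher, at 62.1 and 61.0 FPKM (1.92 ± 0.11, limma, adjusted p = 1.1e-05), and with both hairpins 5.91-fold higher, at 95.6 and 96.0 FPKM (2.56 ± 0.11, limma, adjusted p = 4.0e-07). The 4 shCtrl groups did not overlap in *TIMP2* and kept this order. These calls held without any 1 library. *EP300* was at 4.34 and 4.87 FPKM in shCtrl+shp300 and 11.5 and 10.5 FPKM in shCtrl, and *CREBBP* at 3.36 and 2.96 FPKM in shCtrl+shCBP and 6.44 and 5.96 FPKM in shCtrl. *HOXB13* was also lower with shCBP (log2 fold change -0.87, limma, adjusted p = 0.0086) and with both hairpins (-0.81, limma, adjusted p = 0.0064).

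The other calls in shCtrl cells were less stable. With shp300, *TIMP3* was at 0.388 and 0.325 FPKM (23 and 18 reads) in shCtrl+shp300 and 0 and 0.0669 FPKM (0 and 5 reads) in shCtrl (log2 fold change 1.82 ± 0.39, SE, limma, adjusted p = 0.028), which made 2 of 9 members where 3.25% of all genes passed. This call was lost without either shCtrl library (adjusted p = 0.20 without replicate 1 and 0.057 without replicate 2) and without either shCtrl+shp300 library (0.20 and 0.098). With shCBP, *MMP16* was at 4.94 and 7.27 FPKM in shCtrl+shCBP and 11.5 and 10.7 FPKM in shCtrl (-0.88 ± 0.25, limma, adjusted p = 0.040), which also made 2 of 9, against 12.2% of all genes. It was lost without shCtrl replicate 1 or 2 (adjusted p = 0.21 and 0.11) or shCtrl+shCBP replicate 1 (0.31). With both hairpins *TIMP2* alone passed, 1 of 9 where 18.3% of all genes did.

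In shHOXB13 cells *TIMP2*, *MMP17*, *TIMP3*, *MMP25* and *TIMP1* were higher and *MMP16* and *MMP15* lower with the hairpins against p300 and CBP together. The targeted genes themselves did not pass there, with *EP300* at 4.17 and 4.47 FPKM in shHOXB13+shp300/CBP and 5.62 and 5.88 FPKM in shHOXB13 (-0.41, limma, adjusted p = 0.073) and *CREBBP* at 3.62 and 4.57 FPKM against 5.15 and 4.72 FPKM (-0.27, limma, adjusted p = 0.23). The summed luminal markers were at 1312 and 1204 FPKM in shHOXB13+shp300/CBP and 4438 and 4313 FPKM in shHOXB13, the fibroblast markers at 18.9 and 6.42 FPKM against 5.55 and 4.64 FPKM, and the immune markers at 13.98 to 41.0 FPKM against 9.55 to 12.9 FPKM. Their part in the following values was not tested. With both hairpins *TIMP2* was at 58.0 and 58.7 FPKM in shHOXB13+shp300/CBP and 36.7 and 39.8 FPKM in shHOXB13, 1.52-fold higher (log2 fold change 0.61 ± 0.11, SE, limma, adjusted p = 0.0026). *MMP17* was at 0.956 and 1.32 FPKM in shHOXB13+shp300/CBP and 0.265 and 0.218 FPKM in shHOXB13 (1.84 ± 0.35, limma, adjusted p = 0.0027). *TIMP3* was at 0.373 and 0.446 FPKM (24 and 20 reads) against 0.117 and 0.0192 FPKM (8 and 1 reads) in the same groups (1.66 ± 0.39, limma, adjusted p = 0.0089). *MMP25* also passed as higher (1.04 ± 0.34, limma, adjusted p = 0.041), as did *TIMP1*, with 23 reads against 2 and a ratio of 12.7 (95% counting interval 3.15 to 111, limma, adjusted p = 0.0085). Without shHOXB13+shp300/CBP replicate 1 the *TIMP1* log2 fold change was 1.32 in place of 2.31. Lower were *MMP16* (-1.32 ± 0.25, limma, adjusted p = 0.0026), from 6 and 5 reads in shHOXB13+shp300/CBP and 30 and 22 reads in shHOXB13, and *MMP15*, at 19.7 and 25.3 FPKM in shHOXB13+shp300/CBP and 30.8 and 29.6 FPKM in shHOXB13 (-0.43 ± 0.14, limma, adjusted p = 0.043). In all, 7 of 9 members passed, 5 higher and 2 lower, where 26.7% of all genes passed.

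Of these 7, *TIMP2*, *MMP17* and *MMP16* passed without any 1 library. *MMP25* was lost without shHOXB13 replicate 1 (adjusted p = 0.32) or either shHOXB13+shp300/CBP library (0.080 and 0.12), and *MMP15* without shHOXB13 replicate 1 or 2 (0.18 and 0.12) or shHOXB13+shp300/CBP replicate 1 (0.26) and with median-of-ratios scaling (0.10). *TIMP1* was lost without shHOXB13 replicate 1 (adjusted p = 0.057) or shHOXB13+shp300/CBP replicate 1 (0.060), and *TIMP3* without shHOXB13 replicate 2 (0.084). With the replicate number as a block *MMP15* had an adjusted p of 0.056 there, and fitting only the groups compared left *TIMP2* and *MMP17*. The antisense gene *MMP25-AS1*, which shares exon bases with *MMP25*, was also higher in shHOXB13+shp300/CBP than in shHOXB13 (log2 fold change 1.45, limma, adjusted p = 0.018). The part of this overlap in the *MMP25* values was not tested.

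With shp300 alone *TIMP2* was at 57.5 and 54.5 FPKM in shHOXB13+shp300 and 36.7 and 39.8 FPKM in shHOXB13 (log2 fold change 0.55 ± 0.11, SE, limma, adjusted p = 0.015). *TIMP1* had 16 reads against 2, a ratio of 10.2 (95% counting interval 2.41 to 91.8, limma, adjusted p = 0.022), and so 2 of 9 passed, where 6.94% of all genes did. *TIMP2* was lost without any 1 of the 4 libraries (adjusted p = 0.060 to 0.13), and *TIMP1* without shHOXB13 replicate 1 or 2 (0.13 and 0.098) or shHOXB13+shp300 replicate 1 (0.13). With shCBP alone 0 of 9 passed in limma, where 1.53% of all genes did, and 0 in limma-voom on recovered reads, while 4 members had an unadjusted p under 0.05. *TIMP2* was then at 46.1 and 49.1 FPKM in shHOXB13+shCBP against 36.7 and 39.8 FPKM in shHOXB13 (0.31, adjusted p = 0.15). In these cells *EP300* was at 3.16 and 3.39 FPKM in shHOXB13+shp300 and 5.62 and 5.88 FPKM in shHOXB13, and *CREBBP* at 3.33 and 2.96 FPKM in shHOXB13+shCBP and 5.15 and 4.72 FPKM in shHOXB13. *EP300* was itself lower in shHOXB13 than in shCtrl, where it was at 11.5 and 10.5 FPKM (-0.92, limma, adjusted p = 0.00067). It was also lower in shHOXB13 DMSO than in shCtrl DMSO (-0.86, limma, adjusted p = 4.4e-05), as was *CREBBP* (-0.97, limma, adjusted p = 6.3e-06).

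**Figure D3:**
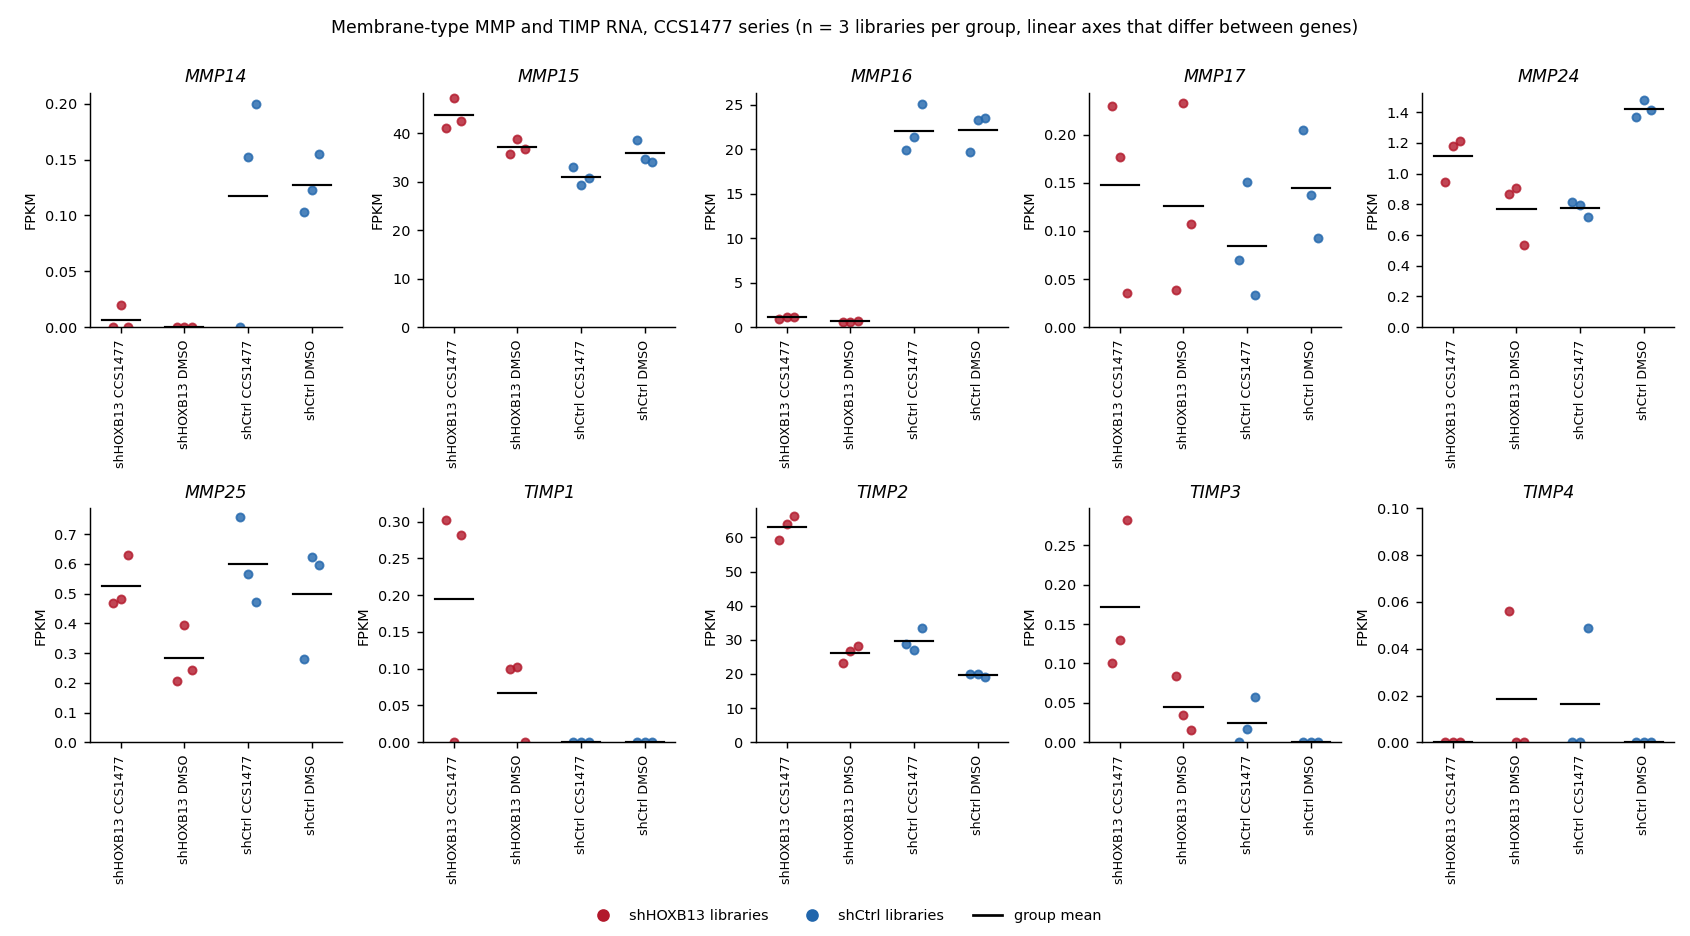
Level of the members in the CCS1477 series in FPKM, with 1 point per library and a bar at the mean of each group of 3. *TIMP2* lies at 59.1 to 66.1 FPKM in shHOXB13 CCS1477, above the other 9 libraries, and *MMP24* is lower in shCtrl CCS1477 than in shCtrl DMSO.

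CCS1477 raised *TIMP2* in both kinds of cells. In shHOXB13 cells it was at 59.1, 64.0 and 66.1 FPKM with CCS1477 and 23.3, 26.8 and 28.1 FPKM with DMSO, 2.42-fold higher (log2 fold change 1.27 ± 0.09, SE, limma, adjusted p = 1.6e-06). In shCtrl cells it was at 28.9, 26.9 and 33.5 FPKM with CCS1477 and 19.96, 20.02 and 19.23 FPKM with DMSO, 1.51-fold higher (0.58 ± 0.09, limma, adjusted p = 0.00082). Neither pair overlapped, and both calls held without any 1 library. *MMP16* was at 0.908, 1.18 and 1.18 FPKM in shHOXB13 CCS1477 and 0.593, 0.621 and 0.722 FPKM in shHOXB13 DMSO, so that it was higher with the drug where it was low (0.67 ± 0.13, limma, adjusted p = 0.0021). It did not pass in shCtrl cells, where the groups overlapped. *MMP24* was at 0.816, 0.798 and 0.717 FPKM in shCtrl CCS1477 and 1.37, 1.48 and 1.42 FPKM in shCtrl DMSO (-0.80 ± 0.20, limma, adjusted p = 0.011), while its antisense gene *MMP24-AS1* was higher (0.85, limma, adjusted p = 2.7e-05). In shHOXB13 cells *MMP24* was at 0.944, 1.18 and 1.21 FPKM with CCS1477 and 0.867, 0.908 and 0.538 FPKM with DMSO (0.50, limma, adjusted p = 0.062), and it passed without shHOXB13 DMSO replicate 2 (0.046).

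*MMP15* passed as higher with CCS1477 in shHOXB13 cells, at 41.2, 47.4 and 42.5 FPKM against 35.7, 38.9 and 36.7 FPKM with DMSO (log2 fold change 0.23 ± 0.08, SE, limma, adjusted p = 0.031). The median gene was 0.20 higher in that comparison, and with median-of-ratios scaling *MMP15* was at 0.02 (adjusted p = 0.87), while in shCtrl cells it then passed as lower (-0.29, adjusted p = 0.028). The call was also lost without shHOXB13 DMSO replicate 1 or 3 (adjusted p = 0.10 and 0.076) or shHOXB13 CCS1477 replicate 2 or 3 (0.13 and 0.055). By count, 3 of 9 members passed in shHOXB13 cells, where 39.6% of all genes did, and 2 of 9 in shCtrl cells, where 25.3% did. Without the shCtrl libraries numbered 1, which stood apart, the same 2 members passed in shCtrl cells, *TIMP2* at 0.61 (adjusted p = 0.0038) and *MMP24* at -0.85 (0.032).

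**Figure D4:**
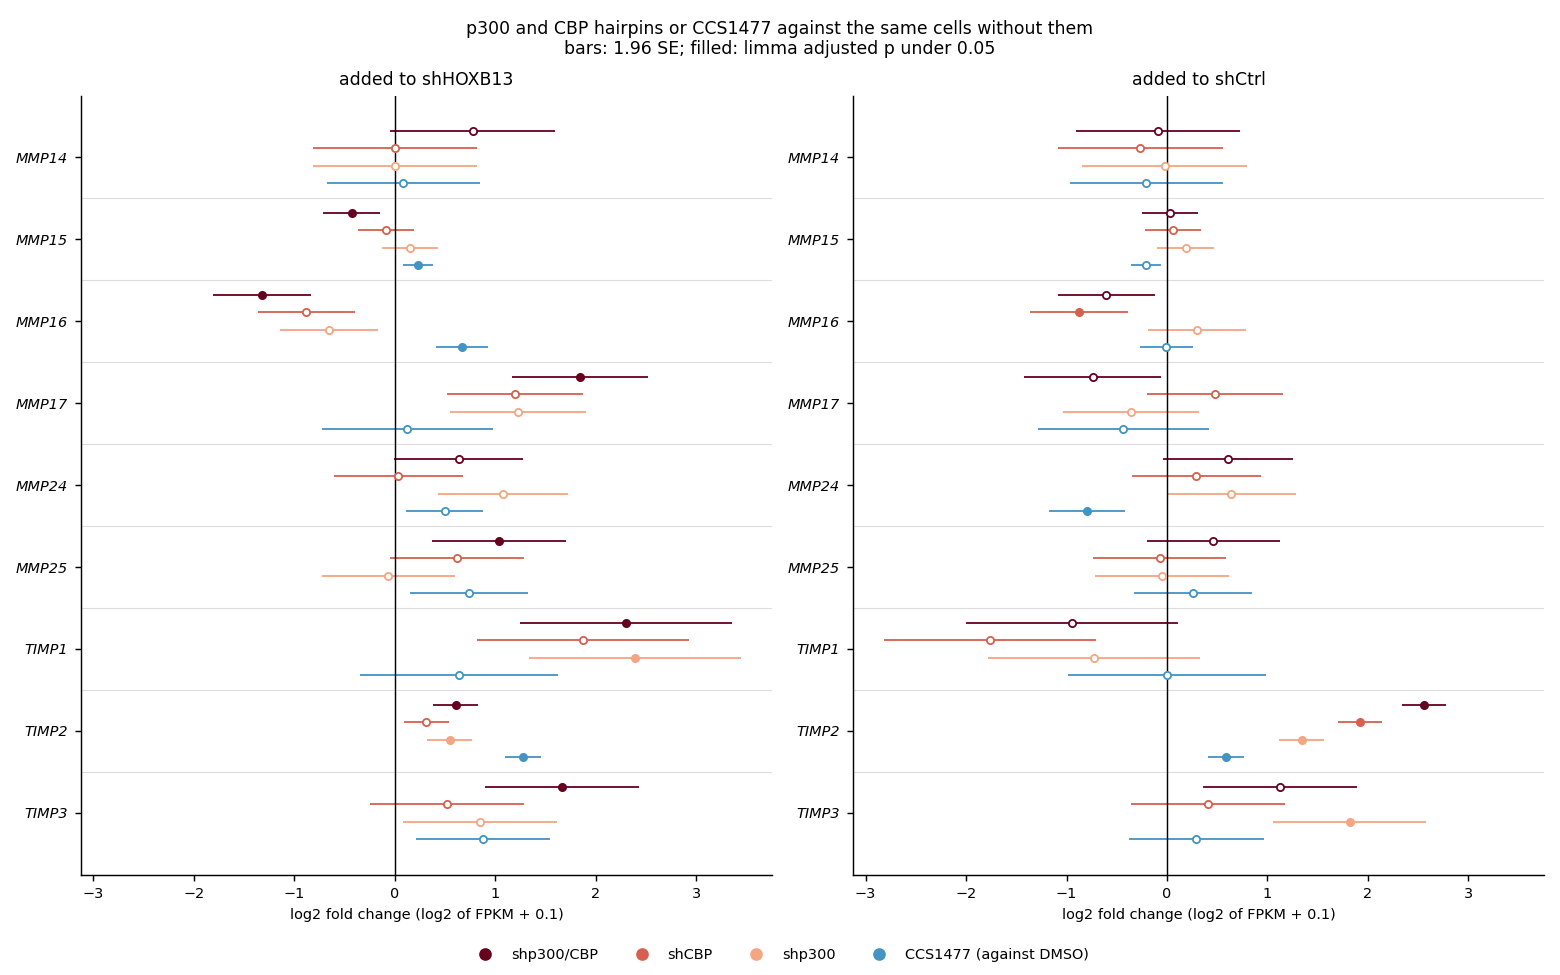
Log2 fold change of each member with shp300, shCBP, both hairpins or CCS1477, in shHOXB13 and in shCtrl cells, with bars that span about 95% around each value and filled points at an adjusted p under 0.05. *TIMP2* lies between 0.31 and 2.56 in all 8 comparisons, with its largest value in shCtrl+shp300/CBP.

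The difference between shHOXB13 and shCtrl cells in their response was tested as an interaction. With both hairpins *EP300* averaged 5.89 FPKM against 10.99 FPKM without them in shCtrl cells, and 4.32 against 5.75 FPKM in shHOXB13 cells. *CREBBP* averaged 4.36 against 6.20 FPKM in shCtrl cells and 4.10 against 4.93 FPKM in shHOXB13 cells. The part of this unequal knockdown in the interactions was not tested. For both hairpins 3 of 9 members passed, where 8.13% of all genes did. *TIMP2* responded less in shHOXB13 cells (log2 fold change 0.61 against 2.56 in shCtrl cells, interaction -1.95 ± 0.16, SE, limma, adjusted p = 0.00015). *MMP17* responded more (1.84 against -0.74, interaction 2.58 ± 0.49, limma, adjusted p = 0.0098), and so did *TIMP1* (2.31 against -0.95, interaction 3.25 ± 0.76, limma, adjusted p = 0.024). The *TIMP2* and *MMP17* interactions held without any 1 library, and that of *TIMP1* was lost without either library of shCtrl, shCtrl+shp300/CBP or shHOXB13 (adjusted p = 0.065 to 0.084). For each hairpin alone, tests added after the *TIMP2* values had been seen, *TIMP2* was the 1 member of 9 that passed, at -0.79 ± 0.16 for shp300 (limma, adjusted p = 0.045, 0.854% of all genes) and -1.61 ± 0.16 for shCBP (adjusted p = 0.0024, 0.605% of all genes). The shp300 value was lost with the replicate number as a block (adjusted p = 0.079) and without any 1 of the 8 libraries other than shCtrl+shp300 replicate 2 (0.073 to 0.18).

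For CCS1477 the *TIMP2* interaction had the other sign. It responded more in shHOXB13 cells (1.27 against 0.58 in shCtrl cells, interaction 0.69 ± 0.13, limma, adjusted p = 0.0061). *MMP24* also passed (0.50 against -0.80, interaction 1.29 ± 0.28, limma, adjusted p = 0.011), and so did *MMP15* (0.23 against -0.21, interaction 0.44 ± 0.11, limma, adjusted p = 0.022) and *MMP16* (0.67 against -0.01, interaction 0.67 ± 0.19, limma, adjusted p = 0.037), which made 4 of 9 where 13.3% of all genes passed. The *TIMP2* and *MMP24* values held without any 1 library. *MMP15* was lost without shHOXB13 DMSO replicate 1 (adjusted p = 0.053) or shHOXB13 CCS1477 replicate 2 (0.058) and with median-of-ratios scaling (0.31, adjusted p = 0.11). *MMP16* was lost without replicate 2 or 3 of shHOXB13 CCS1477, replicate 1 or 2 of shHOXB13 DMSO, replicate 1 or 2 of shCtrl CCS1477 or replicate 2 or 3 of shCtrl DMSO (adjusted p = 0.068 to 0.089). *EP300* averaged 16.6 FPKM with CCS1477 against 9.90 FPKM with DMSO in shHOXB13 cells, and 21.7 against 18.1 FPKM in shCtrl cells. *CREBBP* averaged 10.3 against 4.55 FPKM in shHOXB13 cells and 12.1 against 9.07 FPKM in shCtrl cells. The part of these levels in the interactions was not tested. The hairpins and the drug were run in separate series, and the difference between their interactions was not tested.

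As a description of the balance of their RNA, the TIMP level summed to 38.5 ± 2.14 FPKM in shHOXB13 and 16.5 ± 1.81 FPKM in shCtrl (SD, n = 2), and the MT-MMP level to 31.97 ± 1.03 FPKM in shHOXB13 and 39.0 ± 3.52 FPKM in shCtrl. The TIMP sum divided by the MT-MMP sum was 1.205 ± 0.106 in shHOXB13 and 0.42 ± 0.01 in shCtrl. It was 2.33 ± 0.35 in shHOXB13+shp300/CBP and 2.66 ± 0.09 in shCtrl+shp300/CBP. Over all 28 libraries the ratio was lowest in shCtrl DMSO, where it averaged 0.33 ± 0.01 (SD, n = 3), against 0.67 ± 0.05 in shHOXB13 DMSO. *TIMP2* made up 96.3% to 100% of the TIMP sum in every library. *MMP15* made up 84.4% to 94.6% of the MT-MMP sum in the shHOXB13 libraries of the knockdown series and 63.9% to 77.9% in its shCtrl libraries, and *MMP16* 0.339% to 1.17% against 14.4% to 31.4%. In the CCS1477 series *MMP15* made up 93.3% to 95.8% against 53.8% to 64.1%, and *MMP16* 1.51% to 2.59% against 32.6% to 43.8%. RNA sums do not give protein or protease activity.

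**Figure D5:**
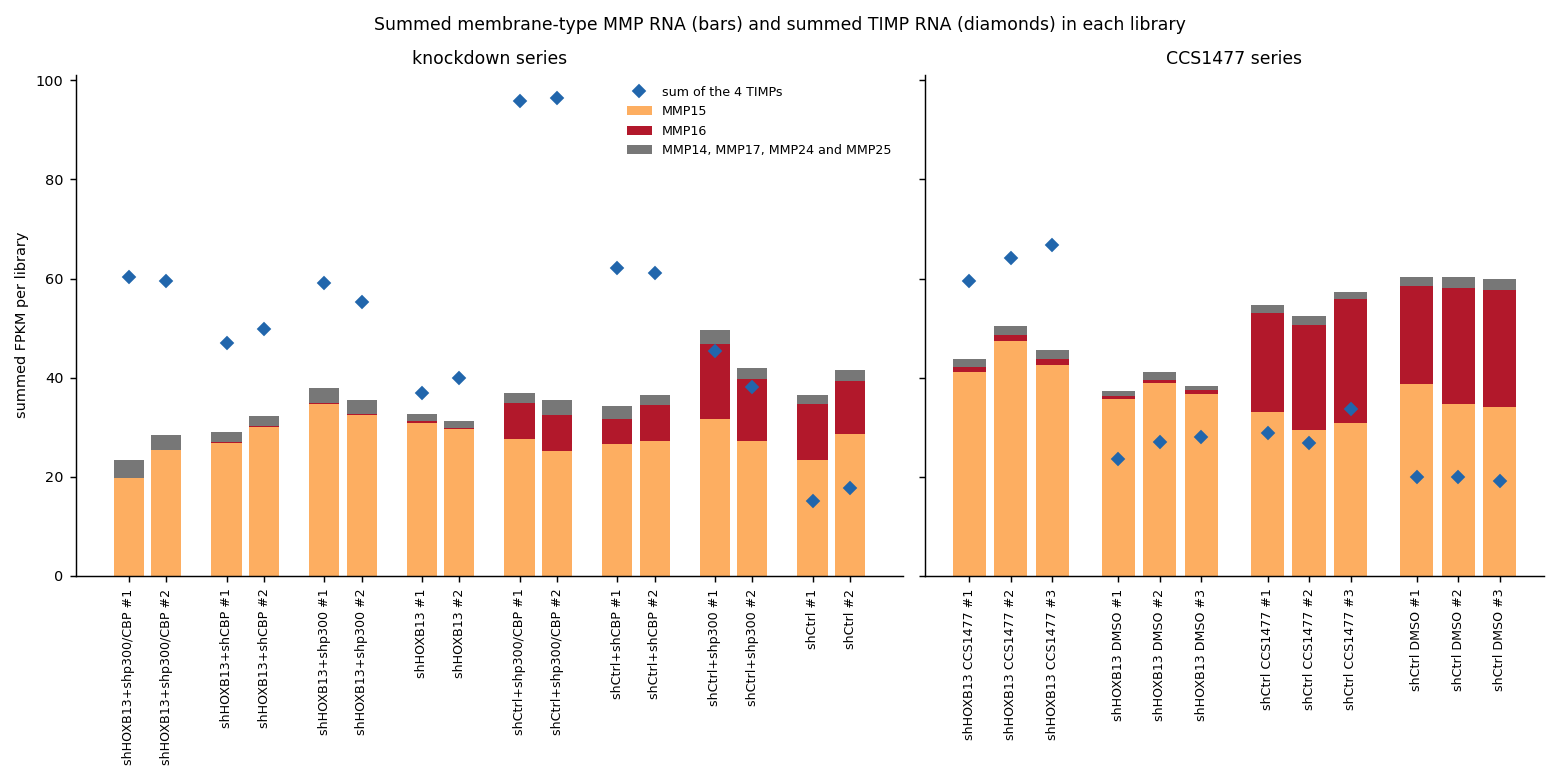
Summed level of the MT-MMPs in FPKM as stacked bars (*MMP15*, *MMP16* and the other MT-MMPs), and of the TIMPs as diamonds. The *MMP16* share is visible in the shCtrl groups and nearly gone in the shHOXB13 groups, and the TIMP diamond lies below the bar in shHOXB13 DMSO, shCtrl+shp300, shCtrl, shCtrl CCS1477 and shCtrl DMSO.

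Genes that act with these members were counted from lists of known partners. Of the 13 tested genes that activate MT-MMPs or control them at the cell surface, 2 were higher and 2 lower in shHOXB13 over shCtrl, where 39.2% of all genes passed (median log2 fold change 0.23, against -0.33 for all genes), and 1 was higher and 4 lower under DMSO, where 57.6% did (0.02 against -0.33). *PCSK6*, a proprotein convertase, was lower, at 3.23 FPKM in shHOXB13 and 9.04 FPKM in shCtrl (-1.46, limma, adjusted p = 3.2e-05), and at 6.15 FPKM in shHOXB13 DMSO and 11.04 FPKM in shCtrl DMSO (-0.83, limma, adjusted p = 3.4e-05). *AGRN*, a heparan sulphate proteoglycan, was higher, at 34.0 FPKM in shHOXB13 and 23.6 FPKM in shCtrl (0.53, limma, adjusted p = 0.0028). With CCS1477, 8 of the 13 were higher and 1 lower in shHOXB13 cells, where 39.6% of all genes passed (median 0.54 against 0.20 for all genes), and 7 were higher and 1 lower in shCtrl cells, where 25.3% did. *CD151*, a tetraspanin, was at 183 FPKM in shHOXB13 DMSO and 116 FPKM in shCtrl DMSO (0.65, limma, adjusted p = 3.8e-05).

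Of 11 tested substrates of MT-MMPs 3 were higher and 2 lower in shHOXB13 over shCtrl, where 39.2% of all genes passed. *FN1*, fibronectin, was at 21.9 FPKM in shHOXB13 and 65.4 FPKM in shCtrl (log2 fold change -1.57, limma, adjusted p = 6.8e-05), and *PTK7*, a receptor-like surface protein, at 6.98 and 18.4 FPKM in these groups (-1.38, limma, adjusted p = 9.9e-06). *DDR1*, a collagen receptor, was at 14.9 FPKM in shHOXB13 and 6.30 FPKM in shCtrl (1.23, limma, adjusted p = 0.00014). All 3 moved the same way under DMSO, where 3 of 9 substrates were higher and 5 lower and 57.6% of all genes passed.

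Of 11 tested secreted MMPs, 5 were higher and none lower in shHOXB13 over shCtrl, where 39.2% of all genes passed. Among the 5 were the stromelysin *MMP10*, at 40.6 FPKM in shHOXB13 and 0.436 FPKM in shCtrl (log2 fold change 6.28, limma, adjusted p = 3.0e-08), the macrophage elastase *MMP12*, at 60.04 and 0.815 FPKM (6.06, limma, adjusted p = 2.3e-06), and the collagenase *MMP13*, at 50.1 and 1.01 FPKM (5.54, limma, adjusted p = 1.0e-07). Of the 6 MT-MMPs, all tested in that comparison, *MMP16* alone passed, and it was lower. The proenzyme gene *MMP2* was at 0 to 0.102 FPKM in all libraries. Of 7 tested ADAM and ADAMTS proteases, which TIMP3 can also inhibit, 1 was higher (*ADAM15*, at 323 FPKM in shHOXB13 and 146 FPKM in shCtrl) and 3 were lower in this comparison, in which 39.2% of all genes passed. Under DMSO, where 57.6% of all genes passed, *MMP13* was at 7.29 FPKM in shHOXB13 and 0.661 FPKM in shCtrl (3.29, limma, adjusted p = 4.2e-05). *MMP10* was at 3.11 and 1.06 FPKM there (1.47, limma, adjusted p = 9.3e-05). The secreted *MMP11* was lower, at 0.954 and 2.00 FPKM (-1.03, limma, adjusted p = 0.00037).

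Genes whose level followed that of a member were ranked by Pearson's r over the 12 group means, centred within each series, among 11352 genes, as a description. Among those closest to *TIMP2* were *NOMO1* (r = 0.95) and *PPL* (0.95). For *MMP16* they were *NUDT16P1*, *GTPBP4* and *RIF1* (0.99 each), for *MMP15* *SLC38A9* (0.85), *TMEM159* (0.81) and *TNFSF15* (0.81), and for *MMP24* *DST* (0.84), *LBHD1* (0.83) and *ZDHHC7* (0.83). The 12 points share libraries and depth between genes, and for *MMP16* they fall into separate shHOXB13 and shCtrl clusters.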

How the data were processed

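Polyadenylated RNA from LNCaP cells was sequenced as 28 libraries. The authors aligned reads to GRCh38 with STAR (2.6.0 in the submitters' processing notes), counted them per gene without regard to strand, and deposited FPKM values, that is read counts divided by gene length and by mapped reads. The deposited FPKM values are not counts, so the authors' DESeq2 test was not repeated. Each library's table lists 26475 genes, 32 of them without a value.

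FPKM values were tested with limma 3.58.1 in R 4.3.3 on log2(FPKM + 0.1), with a trended prior, in 1 fit per series. Genes entered at 0.1 FPKM or more in at least 2 libraries of the knockdown series (17678 genes) or 3 of the CCS1477 series (15907 genes). P-values were adjusted by Benjamini-Hochberg within each comparison, and the threshold was 0.05. Python 3.11.15, numpy 2.4.6, pandas 2.3.3, scipy 1.17.1 and matplotlib 3.10.9 were used for tables and figures. Whole reads were recovered from FPKM for 22417 genes, with all 475193 values above 0 within 0.05 of a whole number, and were used for read numbers and for limma-voom. Counting intervals are exact at 95% and, like the floor of 3 reads, cover counting error only. Read numbers show the precision: a member with under 30 reads in a library is imprecise there.

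The members and lists were chosen with earlier results of these data known. All 10 members were named in every group. From each list up to 3 genes were named, those with the smallest p among genes that passed and averaged at least 1 FPKM, in the comparison of shHOXB13 with shCtrl, untreated or under DMSO. Overlapping genes and *MMP2* were named whatever their level, and the 3 most alike genes for each member with a mean of at least 1 FPKM, of which 1 is not reported here.

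Alternatives were other pseudocounts (0.01 and 1 FPKM), no filter or a filter of 1 FPKM, median-of-ratios scaling, limma-voom, a replicate block, a fold of at least 1.5, only the groups compared in the fit, and each library left out in turn. Deviations of same-numbered libraries correlated at -0.34 to 0.26 in the knockdown series and -0.081 to 0.665 in the CCS1477 series. In shCtrl CCS1477 and shCtrl DMSO all 3 same-numbered pairs were above 0.1 (0.665, 0.394 and 0.373). Libraries of these groups numbered 2 and 3 correlated as highly across numbers (0.402 and 0.439). Only the libraries numbered 1 stood out as a pair, so the numbers were not shown to pair these samples. No 2 libraries were alike within sampling noise. The tests were tried on simulated data with known changes before use. The simulation gave all genes the same spread and left out genes with few reads, so it does not cover the lowest members.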

Additional observations from a re-analysis of the deposited data

Results flagged for a closer look

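The response to the second perturbation differed between shHOXB13 and shCtrl cells in 9 interaction tests (limma, difference of 2 log2 fold changes, in 2 or 3 libraries a group). For both hairpins together the difference was 2.58 for *MMP17*, -1.95 for *TIMP2* and 3.25 for *TIMP1*. For shp300 alone it was -0.79 and for shCBP alone -1.61, both for *TIMP2*. For CCS1477 it was 0.44 for *MMP15*, 0.69 for *TIMP2*, 1.29 for *MMP24* and 0.67 for *MMP16*. *TIMP2* therefore had a smaller response in shHOXB13 cells to the hairpins and a larger one to CCS1477. It averaged 38.3 FPKM in shHOXB13 and 16.2 FPKM in shCtrl, and 26.1 FPKM in shHOXB13 DMSO and 19.7 FPKM in shCtrl DMSO. The starting levels thus also differed between the series. With both hairpins together *EP300* and *CREBBP* were also lowered less in shHOXB13 cells than in shCtrl cells. The part of either difference in the result was not tested.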

How the results depend on the processing

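The counts of members that passed were recomputed under each alternative, in limma unless named, and those that moved by more than 1.5 times were as follows. With a pseudocount of 1 FPKM, 2 passed in place of 1 for shCtrl+shp300/CBP over shCtrl, and with 0.01 FPKM 1 passed in place of 2 for shCtrl+shp300 over shCtrl and 2 in place of 1 for the interaction with shCBP. With no filter 1 passed in place of 2 for shCtrl+shCBP over shCtrl. With a filter of 1 FPKM, 1 passed in place of 2 for shCtrl+shp300 over shCtrl and 4 in place of 7 for shHOXB13+shp300/CBP over shHOXB13. Median-of-ratios scaling gave 1 in place of 2 for shCtrl+shCBP over shCtrl, 2 in place of 1 for the interaction with shCBP and 2 in place of 4 for the interaction with CCS1477. It also turned the *TIMP2* log2 fold change of shHOXB13+shCBP over shCtrl+shCBP to 0.0071. With limma-voom 3 passed in place of 1 for shCtrl+shp300/CBP over shCtrl and 2 in place of 1 for the interaction with shCBP. A fold of at least 1.5 left 1 of 2 for shHOXB13+shp300 over shHOXB13 and 1 of 2 for shCtrl CCS1477 over shCtrl DMSO, and in all ended 6 calls of *TIMP2* and 4 of *MMP15*. With only the groups compared in the fit, 2 passed in place of 7 for shHOXB13+shp300/CBP over shHOXB13, 1 in place of 2 for shHOXB13+shp300 over shHOXB13, 2 in place of 4 for shHOXB13+shp300 over shCtrl+shp300, 1 in place of 2 for shCtrl+shp300 over shCtrl, 2 in place of 1 for shCtrl+shp300/CBP over shCtrl and 2 in place of 1 for the interaction with shCBP. The cause was not tested. Single calls that ended include *TIMP1* with shCBP in both groups (adjusted p = 0.053) and *MMP16* in shHOXB13+shp300/CBP over shHOXB13 (0.13) and in the CCS1477 interaction (0.14), with a pseudocount of 1 FPKM.

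The fit with the replicate number as a block gave 0 in place of 1 for the interaction with shp300. It also gave an adjusted p of 0.052 for the mean *TIMP2* effect and 0.049 for *TIMP1* in shCtrl+shCBP over shCtrl. No call changed in shCtrl CCS1477 over shCtrl DMSO (2 passed), where only the libraries numbered 1 deviated together as a pair. In the other comparisons the samples share only a number.

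With 1 library left out, counts ranged over 2 to 2 for shHOXB13 over shCtrl, 2 to 4 with shp300, 2 to 3 with shCBP and 4 to 5 with both. They ranged over 0 to 1, 0 to 0 and 4 to 6 for shp300, shCBP and both in shHOXB13 cells, 1 to 1, 1 to 2 and 1 to 1 in shCtrl cells, 3 to 4 for the mean effect, 3 to 5 under DMSO and 3 to 4 under CCS1477. For CCS1477 over DMSO they were 2 to 5 in shHOXB13 and 2 to 3 in shCtrl cells, and for the interactions 2 to 3 with both hairpins, 0 to 1 with shp300, 1 to 1 with shCBP and 2 to 4 with CCS1477. Over all members and settings, 119 values that had passed fell short of the threshold, 42 newly passed and 1 that had passed turned. Of the 1665 values whose result had not passed, 90 turned. Where an arm is left with 1 library, it is assumed to vary like the other groups.

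Depth limits *MMP14*, *TIMP1*, *TIMP3* and *TIMP4*, which had at most 24 reads in any library, and *MMP17* with at most 27. With 2 or 3 libraries a group, from 1 cell line and 1 hairpin per gene, a difference that did not pass is not shown to be absent.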

Other observations

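*TIMP4* had 5 reads in all 28 libraries together, so no comparison of groups was made for it. Of the synapsin genes that hold the TIMP genes, *SYN1* reached at most 0.0915 FPKM, *SYN2* 0.237 FPKM and *SYN3* 0.0583 FPKM in any library.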
